A study of Mus musculus with 8 samples.

Results

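The genes described here encode the enzymes that make serine, interconvert it with glycine and carry its one-carbon unit on folate. They were measured in MB21 cells, a mouse medulloblastoma line with the genotype ptch mutant, which all libraries share. The 10 genes were chosen by name and pathway, with no threshold on measured values: Phgdh, Psat1, Psph, Shmt1, Shmt2, Mthfd1, Mthfd1l, Mthfd2, Aldh1l1 and Aldh1l2. Earlier results of these data were known when the genes were chosen. All 10 were found among the 55416 gene identifiers of the deposited table. The 4 DS38 libraries came from cells kept for 5 days with 10 uM DS-1-38, described by the series as derived from benzarone. The 4 DMSO libraries came from cells kept with the vehicle for the same time. Cells of both groups grew unattached in DMEM/F12 medium with B27 supplement. Totals ran from 17142397 to 28476019 counts per DS38 library and from 18878556 to 25582159 counts per DMSO library. Separate cultures are not named in the labels for libraries of the same group. Each p-value therefore weighs a difference against the spread between these samples, and that spread may be technical. The values describe a single line. Both libraries numbered 1 lay toward the same side of the data (their deviations from the group means correlated at 0.323 over genes), so values without them are given where that ends the call of an enzyme gene. DS38 replicates 1 and 2 differed more from DS38 replicates 3 and 4 (chi-square per degree of freedom of the counts 11.7 to 20.7) than DMSO libraries did among themselves (4.58 to 8.3).

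Serine is made from the glycolytic intermediate 3-phosphoglycerate in the cytosol by Phgdh, Psat1 and Psph in turn. Serine hydroxymethyltransferase then splits it into glycine and a one-carbon unit bound to tetrahydrofolate, through Shmt1 in the cytosol or Shmt2 in mitochondria. In the cytosol the trifunctional enzyme Mthfd1 moves that unit between oxidation states and Aldh1l1 burns it to carbon dioxide. In mitochondria Mthfd2, Mthfd1l and Aldh1l2 do the corresponding work, and formate made there returns to the cytosol for purine and thymidylate synthesis. Proliferating and tumour cells are known to use the mitochondrial branch heavily, and several of its genes are known targets of the transcription factor Atf4.

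Transcripts of the serine synthesis enzymes and of the mitochondrial folate enzymes fell with DS-1-38, whereas those of the cytosolic folate enzymes fell only slightly or were almost undetected. Aldh1l2 fell most, to 22.8% of its DMSO level, and Psph and Mthfd2 fell to 33.3% and 38.0%. Shmt1 stood at 88.6% and Mthfd1 at 90.7%. Of the 10 genes, 9 passed the filter on low counts, and all 9 fell at an adjusted p under 0.05 in edgeR's quasi-likelihood test (Benjamini-Hochberg over 15133 genes), while 0 rose. Over all genes tested 39.5% changed, 20.7% lower and 18.8% higher. With library totals alone as the scaling, 7 of the 9 fell, beside 3915 genes higher and 2171 lower over all genes. The median log2 fold change of the 9 genes was -0.90, beside -0.01 over all genes tested. The remaining gene, Aldh1l1, had too few counts to be tested.

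**Figure D1:**
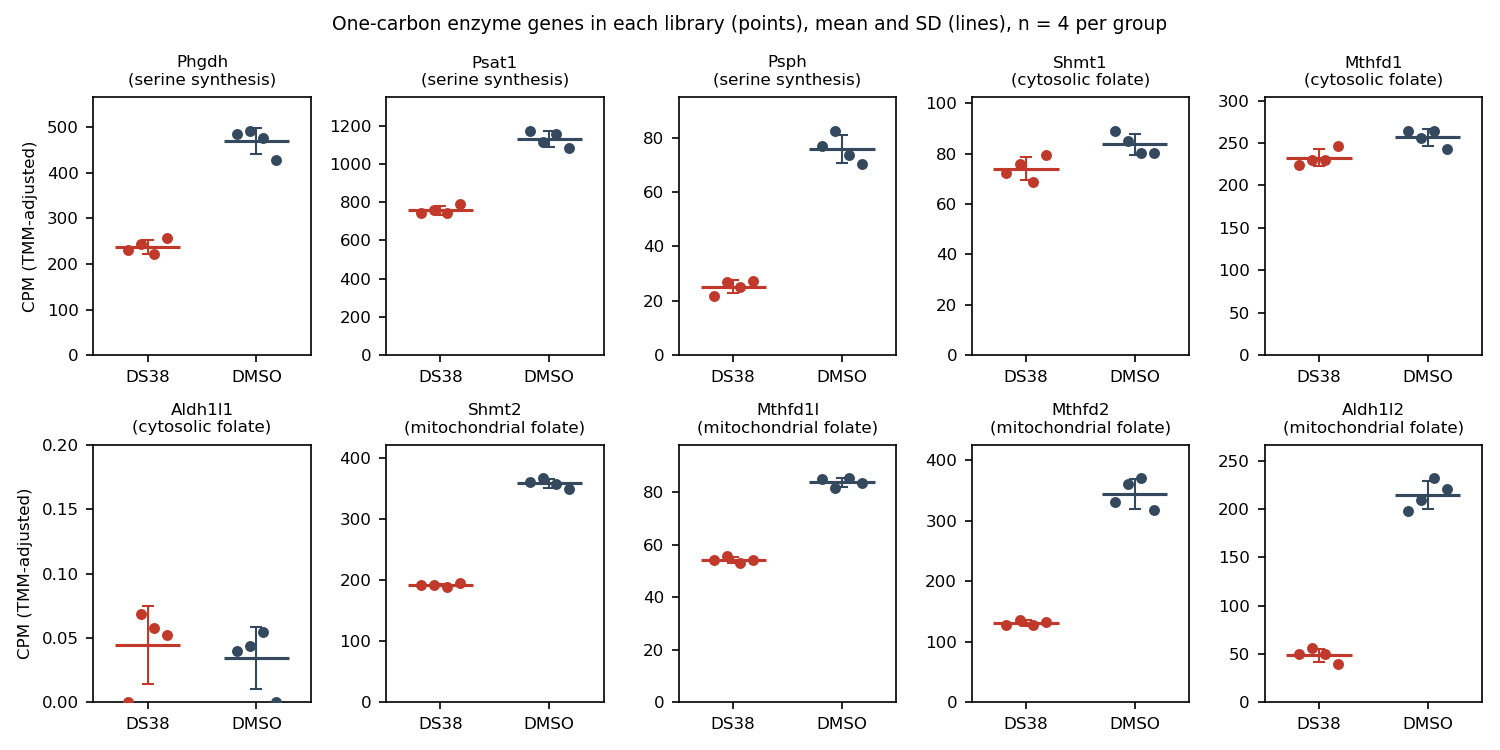
Level of each of the 10 enzyme genes in CPM (counts scaled to a common library total, vertical axes, each starting at 0), in 4 DS38 libraries (left) and 4 DMSO libraries (right); points are libraries, the horizontal line is the mean and the bar is ± SD. The groups are apart for 8 genes, overlap for Mthfd1, and lie near 0 for Aldh1l1. Among all genes tested, 36.1% had the groups apart, 18.8% with DS38 lower.

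The 3 serine synthesis genes fell together, by unequal amounts. Phgdh (ENSMUSG00000053398) encodes phosphoglycerate dehydrogenase, which commits 3-phosphoglycerate to the pathway. Its level, in CPM adjusted by TMM factors, was 231, 244, 221 and 256 in the DS38 libraries against 486, 492, 476 and 429 in the DMSO libraries. Every DS38 library lay far below every DMSO library, and the log2 fold change was -0.98 ± 0.051 SE (edgeR adjusted p = 1.01e-10). Psat1 (ENSMUSG00000024640) encodes the aminotransferase that follows. It stood at 741, 757, 742 and 791 CPM in the DS38 libraries against 1172, 1116, 1154 and 1082 CPM in the DMSO libraries. This was the smallest fall of the 3 genes, with no overlap between the groups (log2 fold change -0.58 ± 0.041 SE, edgeR adjusted p = 4.02e-09).

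Psph (ENSMUSG00000029446) encodes the phosphatase that releases serine in the last step. It had 21.8, 26.8, 25.0 and 27.3 CPM in the DS38 libraries against 76.8, 82.4, 73.4 and 70.4 CPM in the DMSO libraries. The fall was 3.01-fold, the largest of the 3 genes, and the groups were far apart (log2 fold change -1.59 ± 0.067 SE, edgeR adjusted p = 2.23e-11). By the GENCODE vM21 annotation, which belongs to an older build than the counts, Psph overlaps the opposite-strand gene Cct6a, a chaperonin subunit gene. Cct6a averaged 690 ± 19.1 CPM in DS38 and 873 ± 27.7 CPM in DMSO (SD, n = 4 each). Its log2 fold change was -0.34. How the counting treated strand is not stated, so reads could be shared between the pair, and the part of Cct6a in the fall of Psph was not tested.

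All 4 mitochondrial folate genes fell. Shmt2 (ENSMUSG00000025403), the mitochondrial serine hydroxymethyltransferase gene, had 192, 191, 189 and 194 CPM in the DS38 libraries against 360, 366, 356 and 349 CPM in the DMSO libraries. The libraries of each group lay very close together and the groups were far apart (log2 fold change -0.90 ± 0.036 SE, edgeR adjusted p = 1.13e-12). Mthfd2 (ENSMUSG00000005667) encodes the mitochondrial methylenetetrahydrofolate dehydrogenase and cyclohydrolase, known for high levels in embryos and tumours. It had 128, 137, 127 and 132 CPM in the DS38 libraries against 331, 360, 370 and 317 CPM in the DMSO libraries. Its lowest DMSO library lay far above its highest DS38 library (log2 fold change -1.39 ± 0.049 SE, edgeR adjusted p = 1.74e-13).

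Mthfd1l (ENSMUSG00000040675) encodes the mitochondrial enzyme that frees formate from its folate carrier. It had 54.1, 55.8, 53.1 and 54.2 CPM in the DS38 libraries against 84.8, 81.5, 85.2 and 83.4 CPM in the DMSO libraries. This was the smallest of the 4 mitochondrial falls, again without overlap (log2 fold change -0.62 ± 0.040 SE, edgeR adjusted p = 1.04e-09). Aldh1l2 (ENSMUSG00000020256) encodes the mitochondrial formyltetrahydrofolate dehydrogenase, which oxidises the one-carbon unit to carbon dioxide while making NADPH. It had 49.6, 56.0, 49.9 and 39.7 CPM in the DS38 libraries against 198, 209, 232 and 220 CPM in the DMSO libraries. Replicate 4 was the lowest DS38 library, and even the highest DS38 library stayed far under the DMSO range. The log2 fold change of -2.13 ± 0.095 SE (edgeR adjusted p = 2.65e-07) was the 20th lowest estimate of the 15133 genes tested. Aldh1l2 also overlaps an opposite-strand gene, D10Wsu102e, whose log2 fold change was -0.25. D10Wsu102e averaged 110.9 CPM in DS38 and 132.5 CPM in DMSO. Reads could be shared here too, and the part of D10Wsu102e in the fall of Aldh1l2 was not tested. Shmt2 overlaps Ndufa4l2, a gene of low level with means of 2.17 CPM in DS38 and 3.66 CPM in DMSO.

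The cytosolic folate genes moved far less. Shmt1 (ENSMUSG00000020534), the cytosolic counterpart of Shmt2, had 72.1, 76.0, 68.6 and 79.5 CPM in the DS38 libraries against 88.9, 85.1, 80.1 and 80.3 CPM in the DMSO libraries. The groups did not overlap but nearly touched, between DS38 replicate 4 and DMSO replicate 3 (log2 fold change -0.18 ± 0.050 SE, edgeR adjusted p = 0.00943). Over all genes tested, the groups were apart in 36.1%, with DS38 lower in 18.8% and higher in 17.3%. Mthfd1 (ENSMUSG00000021048) had 224, 230, 230 and 247 CPM in the DS38 libraries against 264, 256, 264 and 243 CPM in the DMSO libraries. Here the groups overlapped, DS38 replicate 4 lying above DMSO replicate 4 (log2 fold change -0.14 ± 0.042 SE, edgeR adjusted p = 0.0117). Both calls were lost on scaling by library totals alone, with edgeR adjusted p = 0.0749 for Shmt1 and 0.121 for Mthfd1. They were also lost without both libraries numbered 1, with edgeR adjusted p = 0.0738 and 0.0801. Shmt1 overlaps the opposite-strand gene Smcr8, which rose by 0.26 on the log2 scale, with means of 85.6 CPM in DS38 and 71.5 CPM in DMSO. Its part in the value of Shmt1 was not tested.

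Aldh1l1 (ENSMUSG00000030088), the cytosolic counterpart of Aldh1l2 and a marker widely used for astrocytes, was close to absent. It had 4 counts over the 4 DS38 libraries and 3 counts over the 4 DMSO libraries, with 1 library of each group at 0. A floor of 3 counts, which covers counting error only, equals 0.175 CPM in the shallowest library, and no fold change is given. Formyltetrahydrofolate dehydrogenase transcripts in this line were therefore almost all of the mitochondrial form in both groups.

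**Figure D2:**
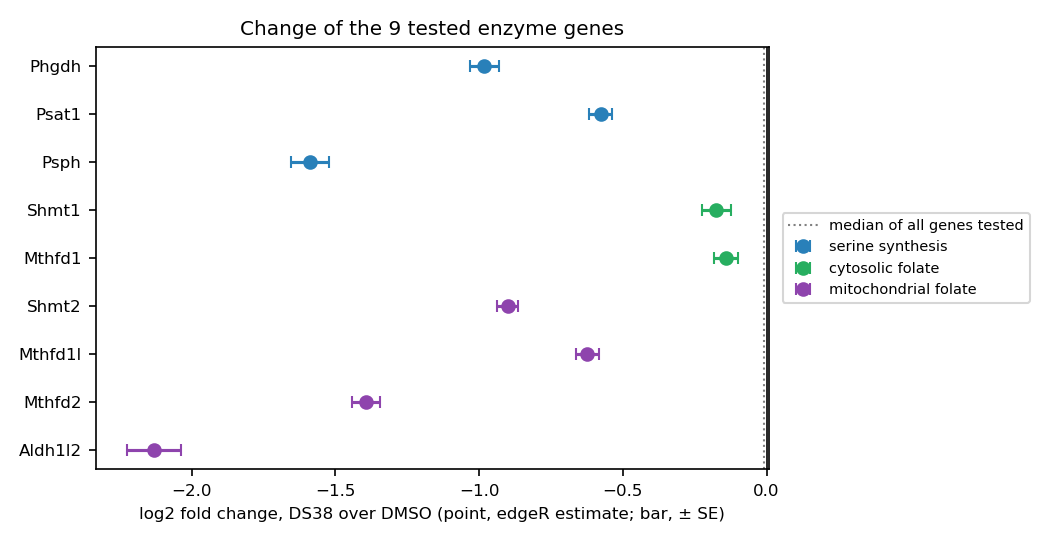
Log2 fold change, DS38 over DMSO, of the 9 tested enzyme genes (horizontal axis; point, edgeR estimate; bar, ± SE; colour, branch of the pathway; dotted line, median of all genes tested). The values run from -2.13 for Aldh1l2 to -0.14 for Mthfd1, with Shmt1 and Mthfd1 nearest to 0.

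Whether the mitochondrial gene fell more than its cytosolic counterpart was tested within each library, where scaling between libraries has little effect. The measure was the log2 ratio of CPM + 0.5, compared between 4 DS38 and 4 DMSO libraries by a two-sided exact permutation test, whose smallest possible p is 0.0286. Shmt2 over Shmt1 was 1.41, 1.32, 1.46 and 1.29 in the DS38 libraries and 2.01, 2.10, 2.15 and 2.11 in the DMSO libraries. The DS38 libraries were all lower, by 0.72 in the mean. Mthfd2 over Mthfd1 was -0.81, -0.75, -0.85 and -0.90 in the DS38 libraries and 0.32, 0.49, 0.49 and 0.38 in the DMSO libraries, a difference of -1.25. Mthfd1l over Mthfd1 was -2.04, -2.04, -2.10 and -2.18 in the DS38 libraries and -1.63, -1.64, -1.63 and -1.54 in the DMSO libraries, a difference of -0.48. Mthfd1 serves in both of these ratios, so they are not independent.

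For Aldh1l2 over Aldh1l1 the difference was -2.16, but with Aldh1l1 near 0 this ratio rests on the 0.5 CPM added and mostly repeats the fall of Aldh1l2. In all 4 pairs the ratio was lower in 4 of 4 DS38 libraries than in any DMSO library, but the Aldh1l2 pair adds little to this count. Among single genes tested, 36.1% had the groups apart, and the share over ratios of other genes was not examined. Each exact permutation p was 0.0286, the smallest the design allows. Benjamini-Hochberg adjustment over the 4 pairs left it at 0.0286, as it must when all 4 are equal.

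**Figure D3:**
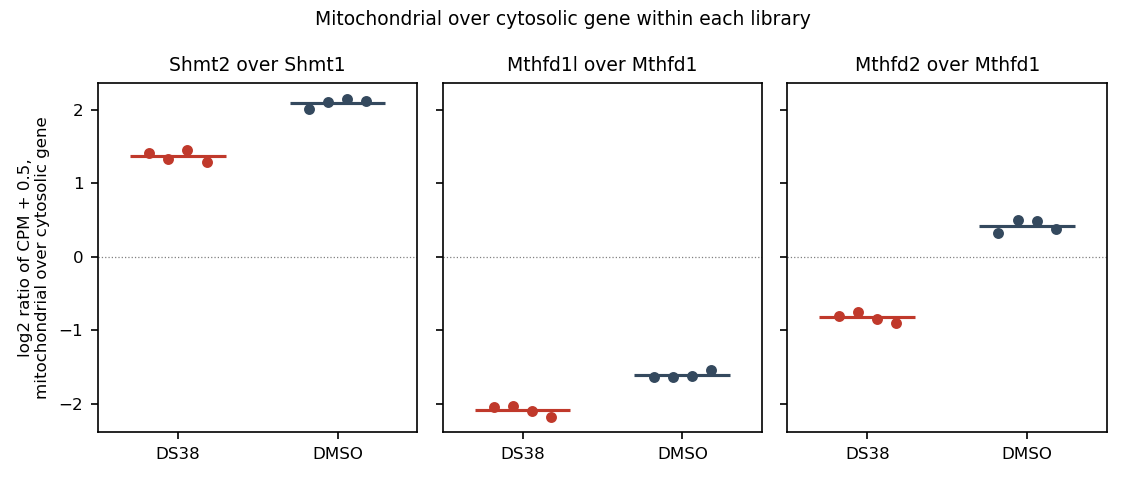
Log2 ratio of the mitochondrial to the cytosolic gene (CPM + 0.5, vertical axis) within each DS38 library (left) and DMSO library (right) for 3 pairs; points are libraries and lines are means. DS38 libraries lie lower in each pair, and for Mthfd2 over Mthfd1 the 2 groups lie on opposite sides of 0.

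Levels of different genes were compared per length, in RPKM, here the TMM-adjusted CPM divided by the deposited gene length in kilobases. In DS38 the order of mean levels was Psat1 (178), Phgdh (95.8), Shmt2 (61.7), Mthfd1 (52.4), Mthfd2 (37.6), Shmt1 (19.1), Mthfd1l (12.3), Aldh1l2 (6.50), Psph (5.83) and Aldh1l1 (0.00988 RPKM). In DMSO it was Psat1 (266), Phgdh (189), Shmt2 (115), Mthfd2 (98.8), Mthfd1 (57.8), Aldh1l2 (28.6), Shmt1 (21.5), Mthfd1l (18.9), Psph (17.5) and Aldh1l1 (0.00764 RPKM). Neighbours overlapped in their ranges over libraries only for Aldh1l2 and Psph in DS38, and for Mthfd1l and Psph in DMSO.

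The order of Mthfd2 and Mthfd1 was thus turned round. Per length, Mthfd2 stood at 0.683 to 0.755 times Mthfd1 in the DS38 libraries and at 1.60 to 1.80 times Mthfd1 in the DMSO libraries. Shmt2 remained the higher serine hydroxymethyltransferase gene in both groups, at 3.06 to 3.45 times Shmt1 in DS38 and 5.05 to 5.56 times Shmt1 in DMSO. Aldh1l2, which stood above Shmt1 in DMSO, stood below both Shmt1 and Mthfd1l in DS38.

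Summed by branch, the 4 mitochondrial folate genes gave 118 ± 1.99 RPKM in DS38 and 261 ± 9.15 RPKM in DMSO (SD, n = 4 each). The 3 cytosolic folate genes gave 71.5 ± 3.19 RPKM in DS38 and 79.3 ± 2.89 RPKM in DMSO. The mitochondrial genes therefore held 62.3 ± 0.979% of the summed transcript RPKM of these folate genes in DS38 and 76.7 ± 0.708% in DMSO. Mthfd2l, a further mitochondrial folate gene, is outside these sums, with means of 4.14 RPKM in DS38 and 3.98 RPKM in DMSO. The 3 serine synthesis genes gave 280 ± 11.8 RPKM in DS38 and 473 ± 20.1 RPKM in DMSO. Each sum is led by its most abundant genes, Psat1 and Phgdh for serine synthesis, Mthfd1 for the cytosolic and Shmt2 and Mthfd2 for the mitochondrial branch, and is given as a description.

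**Figure D4:**
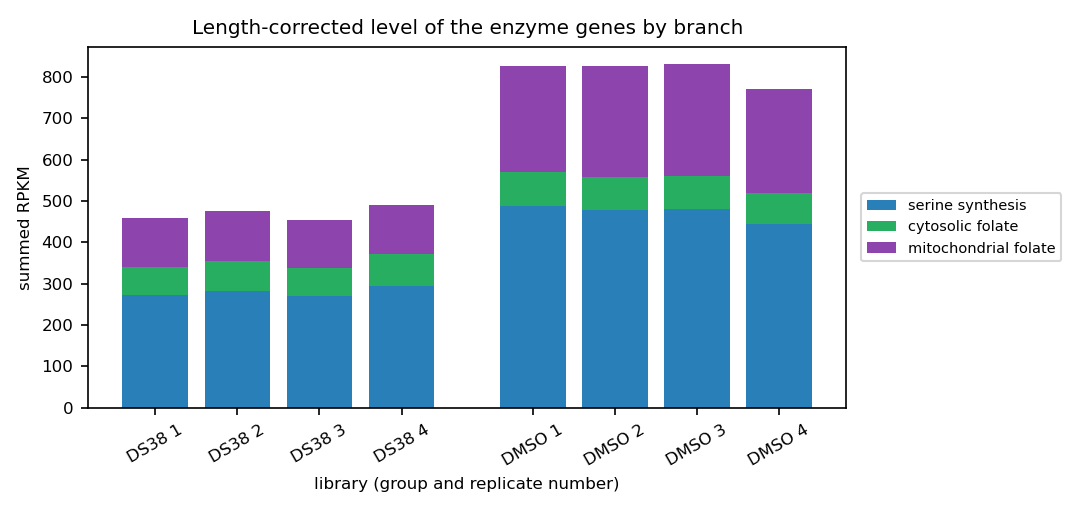
Summed RPKM of the serine synthesis, cytosolic folate and mitochondrial folate genes (stacked bars from 0) in each DS38 library (left) and DMSO library (right). The mitochondrial part runs from 116 to 121 RPKM in DS38 and from 252 to 271 RPKM in DMSO, while the cytosolic part runs from 69.1 to 76.0 RPKM in DS38 and from 75.4 to 82.4 RPKM in DMSO.

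Among themselves some of the genes formed pairs of similar response, within and across the branches. Likeness was measured as the root mean square difference between log2 CPM profiles over the 8 libraries, each centred on its own mean. This measure follows largely the fold change between the groups, so likeness mostly restates falls of similar size. The closest pair of the 10 was Psat1 with Mthfd1l (0.0432), a serine synthesis and a mitochondrial folate gene. Shmt1 with Mthfd1 (0.0594), both cytosolic folate genes, and Phgdh with Shmt2 (0.0742) followed, whereas Psph and Mthfd2, the pair with falls near 3-fold, differed by 0.131. Outside the 10, the genes of at least 4 CPM most like Phgdh were Sox18 (0.0539), Tmem268 (0.0603), Otub2 (0.0704), Bcat1 (0.0752) and Eda2r (0.0778). Bcat1 encodes the cytosolic branched-chain aminotransferase, and the median over the 10922 genes compared was 0.494. Most like Mthfd2 were Cyb5r1 (0.0574), Stc2 (0.0707), Sowaha (0.0811), Eif4ebp1 (0.0867) and Asns (0.0893), with a median of 0.693 over the same genes. Asns encodes asparagine synthetase and Eif4ebp1 a repressor of translation initiation.

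The stretches upstream of the start site were examined because most of these genes moved together. RefSeq promoter sequences (GRCm38.p6) were matched by symbol for 9 of the 10 genes, in 10 windows, and the 250 bases before the start were searched on both strands. Aldh1l2, the gene that fell most, had no promoter sequence, so the counts below do not cover it. The CCAAT box, written CCAAT or ATTGG on the other strand, stood in 7 of the 10 windows, against 35.5% of the windows of tested genes and 33.8% of all windows. The windows that held it included those of the strongly lowered Mthfd2, Psph and Phgdh and equally those of Shmt1, Mthfd1 and the near-silent Aldh1l1. The composite element TGATGNAA bound by Atf4 with C/EBP partners stood in 0 of the 10 windows, against 1.92% of the windows of tested genes. The E-box CACGTG also stood in 0, against 8.13%. TGACGT stood in the Mthfd1l window alone, against 9.77%. A match is a description of letters in this window, and a missing match says nothing of sites elsewhere in the gene. For Mthfd1l and Mthfd1, the end of the promoter sequence matched no GENCODE vM21 transcript of the gene. In that annotation, all 250 bases of the Psph window lay in exons of Cct6a or Psph. All 250 bases of the Mthfd1 window lay in exons of the noncoding gene Gm47525. The windows of Mthfd2 with 3 CCAAT boxes, Phgdh with 2, and Shmt2 with 0 are printed 5′ to 3′ on the strand of the gene, with the CCAAT boxes in capitals. They lie at chr6:83317605-83317854, chr3:98339970-98340219 and chr10:127522445-127522694, all on the minus strand.
Mthfd2: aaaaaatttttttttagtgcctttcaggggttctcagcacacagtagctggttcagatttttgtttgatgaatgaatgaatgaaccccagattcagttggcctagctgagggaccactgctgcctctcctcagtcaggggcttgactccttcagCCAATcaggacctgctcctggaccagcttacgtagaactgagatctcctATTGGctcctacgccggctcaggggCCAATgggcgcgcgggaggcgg
Phgdh: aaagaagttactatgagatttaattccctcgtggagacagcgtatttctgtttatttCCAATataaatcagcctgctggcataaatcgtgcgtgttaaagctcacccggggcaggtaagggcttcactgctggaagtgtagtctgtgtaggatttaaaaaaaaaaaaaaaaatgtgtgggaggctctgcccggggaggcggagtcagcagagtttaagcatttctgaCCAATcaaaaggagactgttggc
Shmt2: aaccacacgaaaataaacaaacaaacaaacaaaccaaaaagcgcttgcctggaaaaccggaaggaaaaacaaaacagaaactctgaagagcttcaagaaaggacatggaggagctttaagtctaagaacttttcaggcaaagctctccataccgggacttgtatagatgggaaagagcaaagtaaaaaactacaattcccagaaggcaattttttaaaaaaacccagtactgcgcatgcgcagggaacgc

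Other genes of the pathway moved less uniformly. Of 59 entries in 7 neighbouring lists, 49 were tested, and 19 fell, 4 rose and 26 did not pass in edgeR. That is 46.9% changed, beside 39.5% over all genes tested. Of 10 tested carriers of folate, serine and glycine, 6 fell and 1 rose, beside 20.7% lower and 18.8% higher over all genes tested. With library totals alone, 5 fell and 1 rose. Without DMSO replicate 2 or without DS38 replicate 4, 5 fell and 0 rose. The glycine transporter gene Slc6a9 averaged 12.99 ± 0.816 CPM in DS38 and 39.99 ± 3.12 CPM in DMSO (SD, n = 4 each). Its log2 fold change was -1.61 ± 0.069 SE (edgeR adjusted p = 2.56e-12). The neutral amino acid exchanger genes Slc1a4 and Slc1a5, which carry serine, fell nearly alike, with log2 fold changes of -1.11 and -1.09. Slc38a2 had -0.36. Slc19a1, the reduced folate carrier gene, had 14.6 ± 0.497 CPM in DS38 and 20.4 ± 0.808 CPM in DMSO (log2 fold change -0.48, edgeR adjusted p = 1.22e-05). Slc46a1, the proton-coupled folate transporter gene, was the riser, at 5.40 ± 0.285 CPM in DS38 and 4.26 ± 0.457 CPM in DMSO (log2 fold change 0.33, edgeR adjusted p = 0.0336). It no longer passed once DMSO replicate 2 or 3 or DS38 replicate 2, 3 or 4 was left out (edgeR adjusted p = 0.0587 to 0.101), nor with the DESeq2 Wald test (adjusted p = 0.0588) or without a filter on low counts (edgeR adjusted p = 0.0836).

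Of 10 tested further folate cycle enzymes, 5 fell and 0 rose, beside 20.7% lower and 18.8% higher over all genes tested. With library totals alone, 4 fell and 2 rose. Tyms, the thymidylate synthase gene (log2 fold change -0.21), and Ggh (-0.28), which removes glutamates from folate, were among those that fell. The call for Tyms was lost without both libraries numbered 1 (edgeR adjusted p = 0.0609). Mthfd2l, the mitochondrial relative of Mthfd2, averaged 27.5 ± 0.793 CPM in DS38 and 26.4 ± 1.53 CPM in DMSO, a log2 difference of 0.05 that did not pass (edgeR adjusted p = 0.49).

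The glycine cleavage system, which breaks glycine down in mitochondria and loads its carbon on folate, split. The decarboxylase gene Gldc rose, at 9.10 ± 1.00 CPM in DS38 and 5.92 ± 0.466 CPM in DMSO (log2 fold change 0.62 ± 0.105 SE, edgeR adjusted p = 1.36e-04). Amt, its aminomethyltransferase, rose by 0.62 on the log2 scale at a low level, 4.04 CPM in DS38 and 2.60 CPM in DMSO (edgeR adjusted p = 0.00614). Dld, a subunit shared with other dehydrogenase complexes, fell (-0.27), and Gcsh stood at 86.4 CPM in DS38 and 86.2 CPM in DMSO (edgeR adjusted p = 0.995).

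Users of the products moved little, while 39.5% of all genes tested changed. Of 10 tested further users of serine and glycine, 1 fell and 0 rose (1 and 1 with library totals alone), the faller being Cbs, which condenses serine with homocysteine (log2 fold change -0.62, means of 1.65 CPM in DS38 and 2.56 CPM in DMSO). The genes for sphingolipid and phosphatidylserine synthesis, Sptlc1 (log2 difference 0.15), Ptdss1 (-0.09) and Ptdss2 (-0.08), did not pass, though Sptlc1 passed as higher in 5 of 16 alternative fits. Of 5 tested methionine cycle genes, 1 fell and 0 rose (1 and 2 with library totals alone), the faller being Ahcy (log2 fold change -0.37), the hydrolase of S-adenosylhomocysteine. Its relatives Ahcyl1 (0.11) and Ahcyl2 (0.11) and the regulatory subunit gene Mat2b (-0.05) did not pass. Ahcyl1 lay at the edge of the threshold (edgeR adjusted p = 0.0504) and passed as higher in 6 of 16 alternative fits, and Ahcyl2 in 3. Of 3 purine synthesis genes that depend on folate or glutamine, Gart fell by 0.12 on the log2 scale at the edge of the threshold (edgeR adjusted p = 0.0495), and 13 of 16 alternative fits lost that call. Atic and Pfas, both at -0.04 and above 0 with library totals alone, did not pass.

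**Figure D5:**
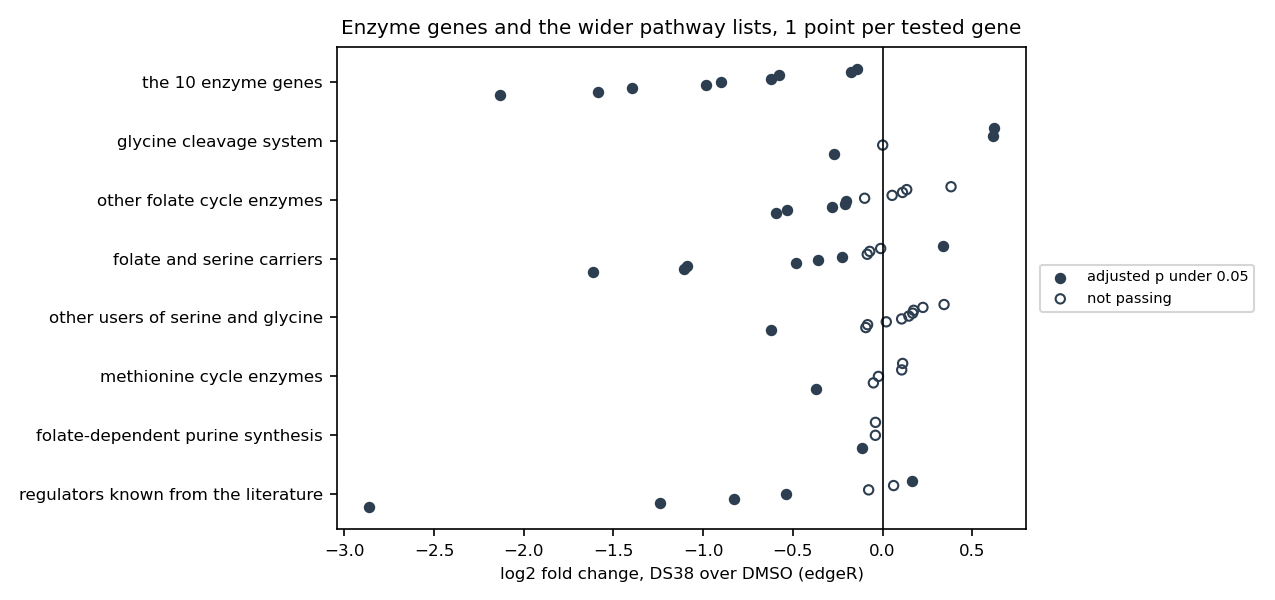
Log2 fold change, DS38 over DMSO (horizontal axis), of each tested gene in the set of 10 and in 7 neighbouring lists (rows); filled points passed an adjusted p under 0.05 in edgeR and open points did not. The enzyme genes lie from -2.13 to -0.14, the carriers from -1.61 to 0.33 and the methionine cycle genes from -0.37 to 0.11.

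Of 7 regulators known for this pathway, 4 fell, 1 rose and 2 did not pass, beside 20.7% lower and 18.8% higher over all genes tested. Atf4, the transcription factor gene of the amino acid response, averaged 183 ± 3.96 CPM in DS38 and 325 ± 18 CPM in DMSO (SD, n = 4 each). Its log2 fold change was -0.83 ± 0.043 SE (edgeR adjusted p = 4.53e-11). Atf5 had 26.8 ± 1.84 CPM in DS38 and 196 ± 23.0 CPM in DMSO, and Ddit3 (log2 fold change -1.24) and Cebpb (-0.54), which encode further stress-linked factors, fell too. Nfe2l2, the factor of the oxidative stress response, rose by 0.17 on the log2 scale, but did not pass once DMSO replicate 3 (edgeR adjusted p = 0.0532) or DS38 replicate 2 (0.0558) was left out. Myc and Mycn, which can also drive these enzymes, had log2 differences of 0.06 and -0.08 that did not pass. Atf4 is controlled largely at translation, so its transcript level does not measure its activity.

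Markers of other cell types were examined beside these values, since fewer cells of a type and less RNA per cell cannot be told apart in bulk libraries. Granule neuron progenitor markers, the cell of origin of this tumour type, numbered 9, all above the filter, and summed to 1910 to 1969 CPM in DS38 and 1801 to 1851 CPM in DMSO. Of these 5 rose, Barhl1 (log2 fold change 0.71), Atoh1 (0.60), Meis1 (0.55), Zic2 (0.18) and Pax6 (0.11), and 3 fell, Gli1 (-0.60), Ptch1 (-0.56) and Zic1 (-0.16). Over all genes tested, 18.8% rose and 20.7% fell. The 7 microglia and macrophage markers summed to 0.251 to 0.572 CPM in DS38 and 0.153 to 0.435 CPM in DMSO, with Cx3cr1 and C1qa at 0 in all libraries. The 8 astrocyte markers summed to 350 to 375 CPM in DS38 and 344 to 386 CPM in DMSO, nearly all of it from the glutamate transporter genes Slc1a2 and Slc1a3, while Aqp4 averaged 0.0421 CPM in DS38 and 0.0128 CPM in DMSO. Of the 6 astrocyte markers tested, 2 rose, Gfap (log2 fold change 0.75) and Fgfr3 (0.96), both under 4 CPM, and Slc1a3 fell (-0.13). The call for Slc1a3 was lost with library totals alone (edgeR adjusted p = 0.134) and without both libraries numbered 1 (0.0516), and that for Fgfr3 without DMSO replicate 2 (0.0533). The 7 oligodendrocyte lineage markers summed to 63.2 to 68.3 CPM in DS38 and 86.1 to 92.2 CPM in DMSO, mostly Pdgfra (log2 fold change -0.52), with Sox10 close to 0. The 5 endothelial markers summed to 2.24 to 2.54 CPM in DS38 and 0.882 to 2.61 CPM in DMSO, with Cldn5 at 0 in all libraries. Of the 2 tested, Tek rose, at 0.747 CPM in DS38 and 0.318 CPM in DMSO with overlapping groups (log2 fold change 1.34, edgeR adjusted p = 0.0295). The 6 fibroblast markers summed to 3.98 to 4.99 CPM in DS38 and 2.50 to 3.22 CPM in DMSO, and Col1a1 among them rose, at 0.798 CPM in DS38 and 0.233 CPM in DMSO. The part of any of these in the falls of the enzyme genes was not tested.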

How the data were processed

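RNA was measured in 8 libraries of MB21 cells. The deposited table holds raw read counts per gene and the gene length in bases. Per the submitters' processing notes, the tools were edgeR, R 4.1.0, Subread 2.0.3, featureCounts and STAR 2.7.9a, and the builds GRCm39 and GRCh38.p13 are named without a role. The annotation release, strand setting and handling of multiply matching reads: not given in the sources used here. Reads shared with overlapping genes or pseudogenes could therefore change a value.

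Symbols were matched by identifier for 52083 of 55416 identifiers. Genes passing edgeR's filterByExpr (minimum 10 counts) entered the robust quasi-likelihood test of edgeR 4.0.16, run under R 4.3.3 (TMM factors from 0.975 to 1.03, Benjamini-Hochberg over 15133 genes, threshold 0.05). The procedure was also run on simulated independent libraries, which did not hold the split between DS38 libraries described below. Each SE was taken as log2 fold change over root F. Within-library ratios were tested by exact permutation in scipy 1.17.1. The genes, lists and tests were chosen with earlier results of these data known. All 10 enzyme genes were named. From each neighbouring list the up to 4 tested genes of smallest p were named, with Atf4 and Mthfd2l, and some of these are not reported here. Slc46a1, Slc19a1, Nfe2l2, Myc, Mycn and the cell type markers were named after their values were seen. Alternatives were DESeq2 1.42.0 (size factors or Wald test), limma 3.58.1's voom, library totals, other filters, the replicate block, and leaving out libraries. The dose was 10 uM for 5 days. No pair of libraries within a group agreed within counting noise (chi-square per degree of freedom). Between DS38 libraries this was 4.66 for replicates 1 and 2, 4.31 for replicates 3 and 4, and 11.7 to 20.7 across these pairs, and between DMSO libraries it was 4.58 to 8.3.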

Additional observations from a re-analysis of the deposited data

Results flagged for a closer look

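Of 28 sets of 4 libraries examined for a lone sample (each enzyme gene and each pair ratio in each group), 1 stood out: the log2 ratio of Mthfd1l over Mthfd1 in DMSO replicate 4 was -1.538, apart from the other 3 DMSO libraries at -1.63 to -1.64. It lay farther from the DS38 libraries than those did. About 1 set in 20 stands out this way by chance.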

How the results depend on the processing

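Over 16 alternative fits, 9 enzyme genes were tested and 140 of 144 log2 fold changes kept their sign and their side of the threshold. The other 4 are the lost calls of Shmt1 (-0.11 with library totals alone, -0.13 without both libraries numbered 1) and Mthfd1 (-0.08 and -0.11), so that 7 rather than 9 genes fell under those settings. Leaving out both libraries numbered 1 was chosen after seeing the data. Aldh1l2 ran from -2.21 to -2.04, Mthfd2 from -1.43 to -1.33, Psph from -1.62 to -1.51, Phgdh from -1.03 to -0.92, Shmt2 from -0.91 to -0.84, Mthfd1l from -0.64 to -0.56 and Psat1 from -0.60 to -0.52. Of 45 other named genes tested, 31 kept sign and side throughout.

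Signs reversed only for genes that did not pass in any case. Gcsh had -0.0018 with limma-voom, -0.0109 without a filter, -0.0004 with the replicate block and -0.0344 to 0.0406 on leaving out a library. Library totals alone gave 0.0091 for Mat2b, 0.0204 for Pfas and 0.021 for Atic. Slc1a2 ran from -0.0126 (without DMSO replicate 2) to 0.0647 on leaving out a library. Over all genes, 4939 to 6103 changed under the alternatives, and the median log2 fold change moved to 0.0514 with library totals alone and to 0.064 without a filter on low counts.

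Same-numbered libraries had deviations correlated at 0.323, -0.0677, 0.0658 and -0.0734. Neither these values nor the labels settle whether the numbers pair the samples. With the replicate block 5594 genes changed, against 5980 without it, and the 9 enzyme genes stayed called. A sign-flip test of the 4 same-numbered differences cannot go below an exact p of 0.125, which it gave for Shmt2 over Shmt1 (-0.72), Mthfd1l over Mthfd1 (-0.48), Mthfd2 over Mthfd1 (-1.25) and Aldh1l2 over Aldh1l1 (-2.16). Leaving out a library, the exact permutation p cannot go below 0.0571. The differences then ran from -0.753 to -0.696 for Shmt2 over Shmt1, from -0.497 to -0.451 for Mthfd1l over Mthfd1, from -1.28 to -1.23 for Mthfd2 over Mthfd1 and from -2.21 to -2.06 for Aldh1l2 over Aldh1l1. Depth limits only Aldh1l1 among the enzyme genes.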
